A study of Rattus norvegicus with 4 samples.

Results

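The chemokines and cytokines of nerve injury were followed as 10 genes in the RNA-seq of cultured rat Schwann cells (SCs): Cxcl14, Ccl2, Cxcl1, Cxcl12, Cxcl10, Cx3cl1, Il6, Lif, Csf1 and Il1b. The genes were taken by symbol from the count table, and all 10 had a row among its 17949 genes. They were listed for their function in the injured nerve, with earlier results of these data known. Primary SCs of rat sciatic nerve, grown with serum, forskolin and heregulin, were infected for 48 h with a lentivirus that expresses the Egr2-AS, the antisense RNA of the Egr2 promoter (Lenti-AS, n = 2), or with a control lentivirus carrying GFP (Lenti-GFP, n = 2). Both groups received virus and polybrene. The antisense virus carried a red fluorescent reporter, so the groups differed in the reporter as well. Each replicate was an RNA preparation of its own, but the strain and the number of animals behind the cultures are not given in the sources used here, so p-values measure the spread between these samples. Cxcl14 was in addition chosen by its measured level in counts per 1e6 counts of the genes tested (CPM), which was higher with Lenti-AS in these same samples, so its difference is given as a description with no test.

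Chemokines are small secreted proteins that guide migrating cells and are named by the spacing of their first cysteines (CC, CXC and CX3C). After nerve injury, SCs release chemokines and cytokines that draw macrophages to the nerve and help to clear myelin. CCL2 attracts monocytes through CCR2, and CXCL1 attracts neutrophils through CXCR2. CXCL12 signals through CXCR4 and is taken up by the scavenging receptor ACKR3, while CXCL10 is an interferon-induced ligand of CXCR3. CX3CL1 is a membrane-bound chemokine that binds CX3CR1. LIF and interleukin-6 signal through the shared receptor chain gp130, encoded by Il6st. CSF1 maintains macrophages through CSF1R, and interleukin-1 beta starts inflammatory signaling through IL1R1 and its partner IL1RAP. CXCL14 is a chemokine whose receptor is debated.

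The promoters of Cxcl14, Cxcl1 and Cxcl12 are shown because these were the CXC members with a measurable level, and their differences went in opposite directions. RefSeq promoter sequences of the GRCr8 assembly were matched by symbol for 7 of the 10 genes (Cxcl14, Cxcl1, Cxcl12, Cxcl10, Cx3cl1, Il6 and Il1b), while the reads had been counted on rn6. Each line gives the 250 bases before the annotated start, 5′ to 3′ on the strand of the gene, and start sites were not measured in these cells. Capitals mark the letters TGANTCA, the pattern bound by AP-1 factors, and a pattern bound by NF-kB (GGG, any 2 bases, then TTTCC), both searched on both strands. The Cxcl14 window lies at chr17:8322900-8323149 (plus strand), that of Cxcl1 at chr14:17479322-17479571 (minus strand) and that of Cxcl12 at chr4:152060531-152060780 (plus strand).
Cxcl14: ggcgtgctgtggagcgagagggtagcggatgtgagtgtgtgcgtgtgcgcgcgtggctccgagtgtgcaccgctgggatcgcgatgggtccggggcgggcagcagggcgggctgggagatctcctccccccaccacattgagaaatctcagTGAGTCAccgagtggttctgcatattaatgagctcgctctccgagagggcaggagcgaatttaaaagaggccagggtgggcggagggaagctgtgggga
Cxcl1: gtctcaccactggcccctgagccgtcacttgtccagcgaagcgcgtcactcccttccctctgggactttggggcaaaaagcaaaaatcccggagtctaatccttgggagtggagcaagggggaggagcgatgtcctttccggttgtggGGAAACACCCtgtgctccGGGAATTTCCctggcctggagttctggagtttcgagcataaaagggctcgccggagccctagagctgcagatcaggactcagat
Cxcl12: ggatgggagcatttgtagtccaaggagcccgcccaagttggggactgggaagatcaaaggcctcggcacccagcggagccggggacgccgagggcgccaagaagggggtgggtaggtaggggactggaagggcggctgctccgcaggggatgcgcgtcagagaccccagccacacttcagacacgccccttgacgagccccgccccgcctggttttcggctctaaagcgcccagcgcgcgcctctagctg

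Cxcl14 held TGAGTCA from 99 to 93 bases before the start, and Cxcl10 held the same letters from 96 to 90 bases before its start. TGANTCA was found in 2 of the 7 promoters and in 6.34% of all 33469 RefSeq promoter windows of this length. Cxcl1 held GGGAATTTCC from 84 to 75 bases before the start and, on the other strand, a second match that reads GGAAACACCC from 102 to 93 bases. Il6 held GGGATTTTCC from 68 to 59 bases. The NF-kB pattern was thus found in 2 of the 7 promoters and in 1.3% of all windows. The Cxcl12 window held neither pattern. The interferon-response pattern (TTTC, any 2 bases, then TTTC) was found in Cxcl10 alone of the 7, where it reads GAAAGTGAAA on the other strand, and in 3.41% of all windows. The letters TATAAA, those of a TATA box, were found in 3 of the 7 promoters and in 12.9% of all windows. They lay from 162 to 157 bases before the start in Cxcl10, 78 to 73 in Cx3cl1 and 60 to 55 in Il1b. Whether they act as a TATA box was not tested. The matches are descriptions of the letters in these windows.

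The samples held between 74024323 and 96185890 counts. All 8 SC markers were counted in every sample, with summed levels of 6530 and 6570 CPM with Lenti-GFP against 7100 and 8350 CPM with Lenti-AS. Of the 8, 7 were fitted higher and 1 lower with Lenti-AS, at a median log2 fold change of 0.22, beside 0.0071 over all genes tested. An unadjusted edgeR p under 0.05 was found for 5 of them, beside 21.8% of all genes tested. Their smallest edgeR adjusted p was 0.0788. The part of this shift in the levels of the chemokine and cytokine genes was not tested. The 11 macrophage markers summed to 1.72 and 1.86 CPM with Lenti-GFP against 2.38 and 2.30 CPM with Lenti-AS, with 4 or 5 of them at 0 in each sample and C1qa, C1qb, C1qc and Tyrobp at 0 in 3 samples each. Cd68, a lysosomal marker of macrophages, had 1.29 and 1.18 CPM with Lenti-GFP against 1.84 and 1.80 CPM with Lenti-AS (log2 fold change 0.56, SE 0.20, edgeR adjusted p = 0.194), and its part in the levels of Csf1 and Ccl2 was not tested. Cd14, the only other macrophage marker tested, had 0.257 and 0.401 CPM with Lenti-GFP against 0.354 and 0.213 CPM with Lenti-AS. Its groups overlapped, with a log2 fold change of -0.20 (SE 0.44). The 4 T cell markers summed to between 0.557 and 0.918 CPM, with Cd3d and Cd2 at 0 throughout. The 4 endothelial markers summed to 20.5 and 20.6 CPM with Lenti-GFP against 15.1 and 15.8 CPM with Lenti-AS, nearly all from Tek. Of the 7 fibroblast markers, Dcn, Lum and Thy1 had at most 3 counts in any sample, while the collagens, which SCs also make, brought the sum to 4260 and 3810 CPM with Lenti-GFP, 4670 CPM in Lenti-AS 1 and 2810 CPM in Lenti-AS 2. Col1a1 was at 2131 CPM in Lenti-AS 1 and 290.1 CPM in Lenti-AS 2, and Col3a1 was below both Lenti-GFP samples in both (log2 fold change -0.43, SE 0.08, edgeR adjusted p = 0.0520). Red cell globins were high in Lenti-AS 2 alone, with 1668 CPM of Hbb against at most 3.69 CPM in the other samples. Egr2, for which an overlap of the counted exons with the antisense RNA was not tested, had 49.2 and 42.1 CPM with Lenti-GFP against 61.2 and 54.0 CPM with Lenti-AS (log2 fold change 0.33, standard error (SE) 0.11, edgeR adjusted p = 0.152).

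Of the 10 genes, 7 had at least 10 counts in at least 2 samples and were tested: Cxcl14, Ccl2, Cxcl1, Cxcl12, Il6, Lif and Csf1. Cxcl10, Cx3cl1 and Il1b had at most 12 counts in any sample and were not tested. Unless another test is named, p-values are from edgeR's quasi-likelihood F test. Genes were called at a p adjusted over all 12446 genes tested (Benjamini-Hochberg) under 0.05 and a fold change of at least 1.3. By edgeR's quasi-likelihood test, 0 of the 6 tested genes other than Cxcl14 were called in either direction, where 1.98% of all genes tested were called (1.31% higher and 0.667% lower in Lenti-AS). At an unadjusted p under 0.05 there were 5 of the 6, all but Il6, against 21.8% of all genes tested. Without a limit on the fold change 0 of the 6 passed the adjusted p, where 2.18% of all genes tested passed it. DESeq2's Wald test called 3 of the 6, Csf1 higher and Cxcl1 and Cxcl12 lower, where it called 5.04% of all genes tested (3.92% higher and 1.12% lower), and limma-voom and edgeR's likelihood ratio test called 0. With the globin genes left out of the fit, 0 of the 6 were called as well. In 5 of the 6 genes the groups did not overlap, with Ccl2 and Csf1 higher and Cxcl1, Cxcl12 and Lif lower in both Lenti-AS samples, and this held for 54.9% of all genes tested (27.7% higher and 27.2% lower). An exact permutation test of 2 samples against 2 cannot give a two-sided p under 0.333.

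**Figure D1:**
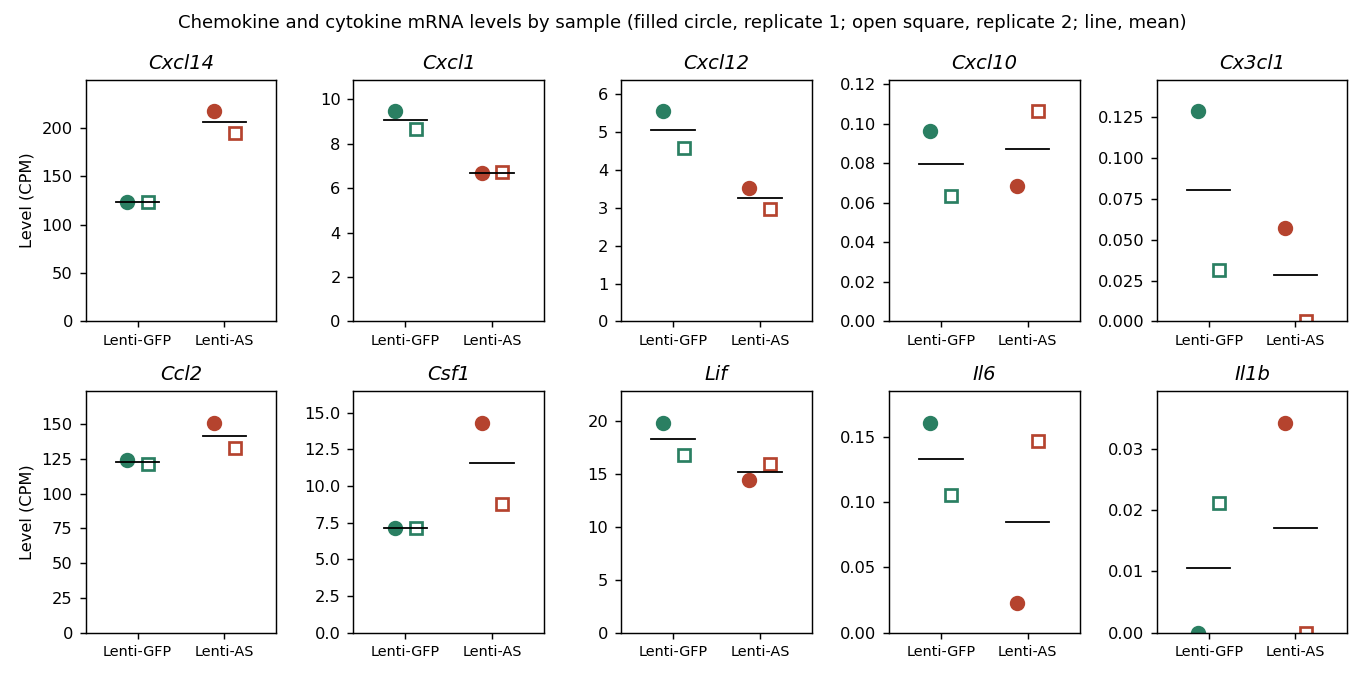
Levels of the 10 genes in CPM (vertical axes, each from 0) in the 4 samples, with replicate 1 as a filled circle, replicate 2 as an open square and the group mean as a line. Cxcl14, Ccl2 and Csf1 lay higher and Cxcl1, Cxcl12 and Lif lower in both Lenti-AS samples, while Cxcl10, Cx3cl1, Il6 and Il1b stayed at or under 0.161 CPM.

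Cxcl14 had 122.8 and 122.9 CPM with Lenti-GFP against 217 and 195 CPM with Lenti-AS, from 11463, 11645, 19012 and 14655 counts. The groups were separate, with a gap of 72.1 CPM from the higher Lenti-GFP to the lower Lenti-AS sample, where the Lenti-AS samples differed by 22.0 CPM. Group levels were 123 ± 0.0460 CPM (SD, n = 2) for Lenti-GFP and 206 ± 15.5 CPM (SD, n = 2) for Lenti-AS, a log2 fold change of 0.75 with an SE of 0.07, or 1.68-fold. Among the 10147 tested genes with a mean of at least 100 counts, 139 others (1.37%) had a log2 fold change at least as large. Cxcl14 was chosen by this rise, so its high rank follows from the choice and is no test. Across the other scalings, filters, tests and the replicate block the log2 fold change lay between 0.74 and 0.78. It was 0.67 without Lenti-AS 1 and 0.82 without Lenti-AS 2. No cell type was separated here, and in RNA of a whole culture more RNA per cell and more cells that make it cannot be told apart.

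The genes whose levels ran most like those of Cxcl14 over the 4 samples were Evi2a, Gcat, Cpeb4, Mt1 and Aox2. Likeness was the root-mean-square difference of the log2 CPM after centring each gene, and it lay between 0.0225 for Evi2a and 0.0308 for Aox2. Evi2a, a membrane protein gene, had 14.9 and 15.0 CPM with Lenti-GFP against 27.1 and 24.6 CPM with Lenti-AS. Mt1, which encodes a metal-binding metallothionein, had 4.80 and 5.09 CPM with Lenti-GFP against 8.59 and 7.82 CPM with Lenti-AS. The log2 fold changes of the 5 genes lay between 0.72 and 0.79. With 4 samples in 2 groups, any gene with a like fold change and close replicates has a like pattern.

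Cxcl12, its signaling receptor Cxcr4 and its scavenging receptor Ackr3 all had lower levels in both Lenti-AS samples, as had 27.2% of all genes tested. None of them was called by edgeR's quasi-likelihood test. Cxcl12 had 5.55 and 4.58 CPM with Lenti-GFP against 3.51 and 2.98 CPM with Lenti-AS, from 518, 434, 308 and 224 counts. The groups did not overlap, and the gap of 1.06 CPM from one to the other was close to the 0.970 CPM by which the Lenti-GFP samples differed. The log2 fold change of Cxcl12 was -0.64 (SE 0.18, edgeR adjusted p = 0.124). DESeq2 called it lower with an adjusted p of 0.0421, within a range of 0.0421 to 0.153 over the other scalings, filters, tests and the block. Its log2 fold change was -0.77 without Lenti-AS 1 and -0.53 without Lenti-AS 2. Such fits take the lone Lenti-AS sample to vary like the Lenti-GFP samples. The log2 fold changes without a Lenti-GFP sample were -0.49 and -0.77.

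Ackr3 had 3.56 and 3.81 CPM with Lenti-GFP against 2.27 and 2.00 CPM with Lenti-AS, from 332, 361, 199 and 150 counts. Here the gap of 1.29 CPM exceeded the 0.275 CPM by which the Lenti-AS samples differed. Its log2 fold change was -0.79 (SE 0.17, edgeR adjusted p = 0.0831), and DESeq2 and the likelihood ratio test called it lower. Cxcr4 had 36.4 and 36.5 CPM with Lenti-GFP against 30.2 and 30.8 CPM with Lenti-AS, so that the replicates of each group lay within 0.544 CPM and the groups 5.67 CPM apart. Its difference was small, with a log2 fold change of -0.26 (SE 0.06, edgeR adjusted p = 0.0990). The enzyme Dpp4, which trims CXCL12, was counted at 22 to 39 reads per sample.

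**Figure D2:**
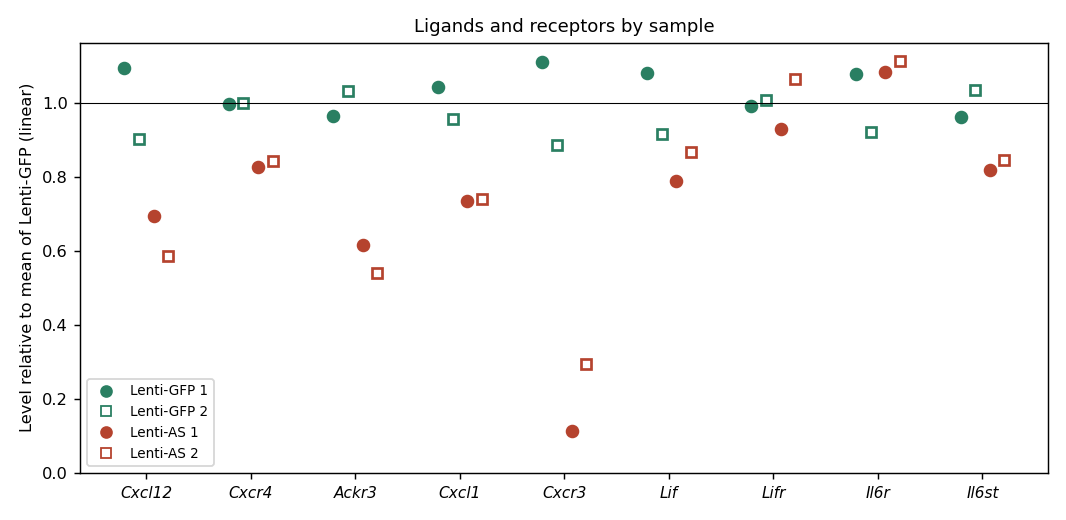
Levels of ligands and receptors in each sample, divided by the mean of the Lenti-GFP samples (vertical axis, linear, from 0), with a line at 1. Cxcl12, Cxcr4, Ackr3, Cxcl1, Cxcr3, Lif and Il6st lay below both Lenti-GFP samples in both Lenti-AS samples, as did 27.2% of all genes tested. Lifr overlapped and Il6r lay slightly above (1.09 against 1.08 for the nearest samples).

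Cxcl1 had 9.47 and 8.68 CPM with Lenti-GFP against 6.69 and 6.73 CPM with Lenti-AS, from 884, 823, 586 and 506 counts. The Lenti-AS samples were nearly equal, and the gap of 1.95 CPM exceeded the 0.787 CPM by which the Lenti-GFP samples differed. Its log2 fold change was -0.44 (SE 0.11, edgeR adjusted p = 0.115), or 1.35-fold lower in Lenti-AS. DESeq2 called it lower with an adjusted p of 0.0407, within a range of 0.0407 to 0.200 over the other scalings, filters, tests and the block. Its log2 fold change was -0.43 without Lenti-AS 1 and -0.44 without Lenti-AS 2. It was -0.37 and -0.50 without a Lenti-GFP sample. Its near copies Cxcl2 and Cxcl3 had at most 1 count in any sample, and the rule for reads that match several copies is not given in the sources used here. Its receptor gene Cxcr2 had between 0 and 8 counts.

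Cxcl10 was at the limit of detection, with 9 and 6 counts with Lenti-GFP against 6 and 8 counts with Lenti-AS, or 0.0633 to 0.106 CPM. The exact 95% binomial intervals, which cover counting error only, ran from 0.0438 to 0.182 counts per 1e6 of the total in Lenti-GFP 1 and from 0.0467 to 0.213 in Lenti-AS 2, so a difference was not detectable at this depth. The receptor gene Cxcr3 had 42 and 34 counts with Lenti-GFP against 4 and 9 counts with Lenti-AS. Both Lenti-AS samples lay below both Lenti-GFP samples, at 0.0456 and 0.120 CPM against 0.450 and 0.359 CPM. For Cxcr3 the log2 fold change was -2.31 (SE 0.53, edgeR adjusted p = 0.0905). Cxcr3 was called lower by the likelihood ratio test, and DESeq2 gave no adjusted p for it. Its log2 fold change was -1.74 without Lenti-AS 1 and -3.11 without Lenti-AS 2. Cxcr3 reached 10 counts only with Lenti-GFP, so it passed the filter through the group where it was higher. Its p-value and call are therefore given as a description only.

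Ccl2, the monocyte attractant, had 124 and 121 CPM with Lenti-GFP against 151 and 132 CPM with Lenti-AS, from 11588, 11460, 13228 and 9953 counts. The groups did not overlap, but the Lenti-AS samples differed by 18.5 CPM, more than the gap of 8.27 CPM that parted them from Lenti-GFP. This gave a log2 fold change of 0.21 (SE 0.08, edgeR adjusted p = 0.192), or 1.16-fold. It was 0.11 without Lenti-AS 1 and 0.30 without Lenti-AS 2. Ccl7, a related monocyte attractant named after its values were seen, had 2.42 and 2.65 CPM with Lenti-GFP against 3.01 and 2.59 CPM with Lenti-AS, and its groups overlapped. Cx3cl1 had 12 and 3 counts with Lenti-GFP against 5 and 0 counts with Lenti-AS, where 0 counts allow up to 0.0405 counts per 1e6 of the total by a floor of 3 counts (exact 95% upper limit 0.0498). Its receptor gene Cx3cr1 had between 0 and 6 counts. The receptor gene Ccr2 had no row under this symbol in the count table.

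Beyond the 10 genes, the chemokine system was sparse in these cells. Of 30 other chemokine ligands with a row, 5 were tested (Cxcl16, Ccl1, Ccl7, Ccl27 and Ccl11) and 0 were called, with 0 at an unadjusted p under 0.05. The remaining 25 had at most 15 counts in any sample. Cxcl16, a membrane-bound chemokine that draws lymphocytes, had 0.621 and 0.591 CPM with Lenti-GFP against 0.719 and 0.931 CPM with Lenti-AS (log2 fold change 0.44, SE 0.28, edgeR adjusted p = 0.404). Ccl1 was counted at 4 to 23 reads, and its groups overlapped. Of 19 chemokine receptors, 8 were tested and 0 were called, with 4 at an unadjusted p under 0.05 (Ackr3, Cxcr3, Cxcr4 and Cxcr6), where 21.8% of all genes tested had such a p and 1.98% were called. Cxcr6, the receptor gene of CXCL16, had 10 and 7 counts with Lenti-GFP against 22 and 13 counts with Lenti-AS (log2 fold change 1.23, SE 0.50, edgeR adjusted p = 0.227). Of these receptors, Cxcr3 passed the filter on counts only through Lenti-GFP, where it was higher. Cxcr6 had 10 counts or more in both samples of Lenti-AS alone, where it was higher. The p-values of Cxcr3 and Cxcr6 and their place among the 4 are therefore a description only. Both genes are also in the median that follows. Over the 8 receptors the median was -0.30 on the log2 scale, with 6 lower, beside 0.0071 over all genes tested. This median was -0.77 without Lenti-AS 1 and -0.04 without Lenti-AS 2.

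Csf1, the macrophage growth factor, had 7.18 and 7.12 CPM with Lenti-GFP against 14.3 and 8.79 CPM with Lenti-AS, from 670, 675, 1256 and 661 counts. Lenti-AS was the higher group in both replicates, but Lenti-AS 1 was at 2.01 times the Lenti-GFP mean and Lenti-AS 2 at 1.23 times. On all samples the log2 fold change was 0.70 (SE 0.23, edgeR adjusted p = 0.165), or 1.62-fold. It was 0.30 without Lenti-AS 1 and 1.00 without Lenti-AS 2. DESeq2 called Csf1 higher with an adjusted p of 0.0333, within a range of 0.0333 to 0.188 over the other scalings, filters, tests and the block. Its receptor gene Csf1r had 1.87 and 1.92 CPM with Lenti-GFP against 1.94 and 2.27 CPM with Lenti-AS (log2 fold change 0.15, SE 0.19, edgeR adjusted p = 0.686).

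The ratio of Lenti-AS 1 to Lenti-AS 2 for Csf1 was 1.63, and 305 others (3.01%) of the 10147 tested genes averaging 100 counts or more had a ratio at least as large. A ratio over 1.5 in either direction was found in 4.84% of these genes between the Lenti-AS samples and in 0.779% between the Lenti-GFP samples. Several genes, all but Tnfrsf1a and Col1a2 named after their values were seen, were also high in Lenti-AS 1. Unlike Csf1, Sox10 and Col1a2 lay below both Lenti-GFP samples in Lenti-AS 2. Sox10, the lineage factor of SCs, was at 163 CPM in Lenti-AS 1 and 61.2 CPM in Lenti-AS 2, where the Lenti-GFP samples were at 77.1 and 72.6 CPM. The TNF receptor gene Tnfrsf1a, at 30.1 and 17.7 CPM, and the mRNA decay factor gene Zfp36, at 25.8 and 15.5 CPM, were higher in Lenti-AS 1 as well. Like Csf1, they lay above Lenti-GFP in both Lenti-AS samples. The part of this difference between the Lenti-AS samples in the level of Csf1 was not tested.

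**Figure D3:**
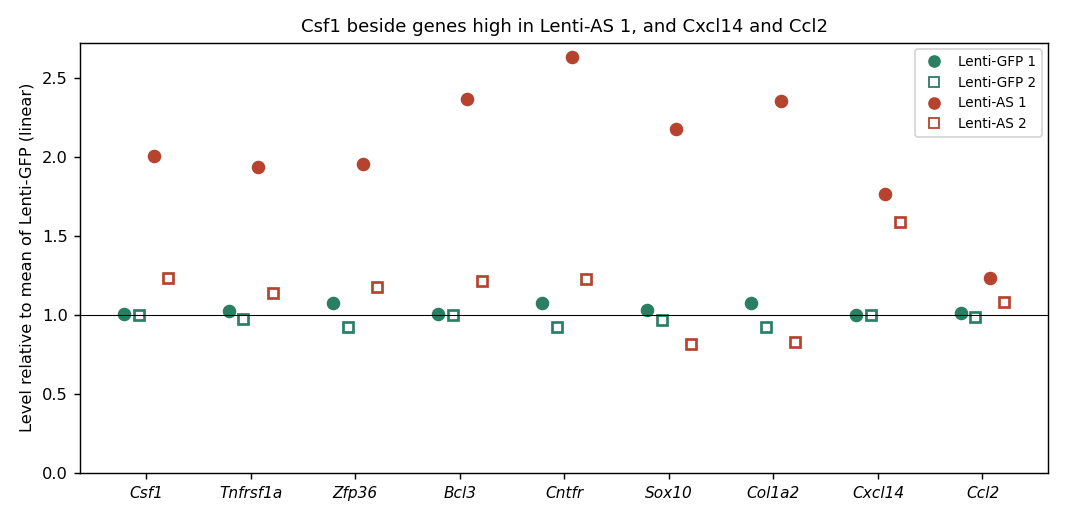
Levels of Csf1, of 6 genes that were high in Lenti-AS 1, and of Cxcl14 and Ccl2 in each sample, divided by the mean of the Lenti-GFP samples (vertical axis, linear, from 0). Csf1 stood at 2.01 in Lenti-AS 1 and 1.23 in Lenti-AS 2, while Cxcl14 stood at 1.77 and 1.59.

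Among the other colony-stimulating factors and receptors, 5 of 9 genes were tested. Of these, 0 were called and 1 had an unadjusted p under 0.05, beside 1.98% and 21.8% of all genes tested. All 5 were fitted higher, at a median log2 fold change of 0.16, beside 0.0071 over all genes tested, and the median was 0.12 to 0.41 without 1 sample. Il34, the other ligand of CSF1R, had 0.246 and 0.306 CPM with Lenti-GFP against 0.411 and 0.412 CPM with Lenti-AS, from 23 to 36 counts per sample (edgeR adjusted p = 0.379). Kit, the receptor of stem cell factor, had 12.7 and 11.0 CPM with Lenti-GFP against 13.9 and 16.3 CPM with Lenti-AS (log2 fold change 0.35, SE 0.12, edgeR adjusted p = 0.182).

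Lif had 19.9 and 16.8 CPM with Lenti-GFP against 14.5 and 15.9 CPM with Lenti-AS, from 1855, 1596, 1270 and 1197 counts. Both Lenti-AS samples lay below both Lenti-GFP samples, but the gap of 0.915 CPM was under the 3.03 CPM by which the Lenti-GFP samples differed. The fitted log2 fold change was -0.27 (SE 0.11, edgeR adjusted p = 0.223), or 1.21-fold lower. It was -0.14 without Lenti-GFP 1 and -0.39 without Lenti-GFP 2. Its receptor gene Lifr had 7.76 and 7.88 CPM with Lenti-GFP against 7.28 and 8.34 CPM with Lenti-AS, and the groups overlapped.

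Il6 was at the limit of detection, with 15 and 10 counts with Lenti-GFP against 2 and 11 counts with Lenti-AS. Lenti-AS 1 was the lowest sample, and Lenti-AS 2 lay between the Lenti-GFP samples. The log2 fold change of -0.70 had an SE of 0.81 (edgeR adjusted p = 0.648) and turned to 0.14 without Lenti-AS 1. Its receptor gene Il6r had 9.42 and 8.05 CPM with Lenti-GFP against 9.48 and 9.72 CPM with Lenti-AS (log2 fold change 0.14, SE 0.12, edgeR adjusted p = 0.540).

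The chain that LIF and interleukin-6 share had a lower level in both Lenti-AS samples. Il6st had 1809 and 1946 CPM with Lenti-GFP against 1540.4 and 1591 CPM with Lenti-AS, with 218 CPM between the groups and 137 CPM between the Lenti-GFP samples. Its log2 fold change was -0.26 (SE 0.06, edgeR adjusted p = 0.0918).

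Of the 13 genes of this family with a row, other than Il6 and Lif, 12 were tested. Of these, 0 were called and 4 had an unadjusted p under 0.05 (among them Il6st, Il11 and Cntf), beside 1.98% and 21.8% of all genes tested. The median log2 fold change was -0.05, beside 0.0071 over all genes tested, with 7 lower and 5 higher. Il11 and Cntf are named after their values were seen. Il11, a further ligand that uses gp130, had 70 and 76 counts with Lenti-GFP against 42 and 26 counts with Lenti-AS (log2 fold change -0.90, SE 0.31, edgeR adjusted p = 0.175). Cntf, a neurotrophic ligand of SCs, had 13.3 and 13.9 CPM with Lenti-GFP against 12.1 and 10.8 CPM with Lenti-AS (edgeR adjusted p = 0.225).

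Il1b had 0 and 2 counts with Lenti-GFP against 3 and 0 counts with Lenti-AS, and by the floor of 3 counts 0 counts allow up to 0.0319 counts per 1e6 of the total in Lenti-GFP 1 and 0.0405 in Lenti-AS 2 (exact 95% upper limits 0.0392 and 0.0498). Its receptor genes were counted without a difference beyond their spread. Il1r1 had 0.868 and 1.21 CPM with Lenti-GFP against 0.707 and 1.09 CPM with Lenti-AS, and Il1rap had 123 and 127 CPM with Lenti-GFP against 119 and 125 CPM with Lenti-AS. The groups overlapped for both.

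Of 17 other interleukin-1 and TNF ligands and receptors, 11 were tested. Of these, 0 were called and 3 had an unadjusted p under 0.05 (Il18, Tnfrsf1a and Il1rl1), beside 1.98% and 21.8% of all genes tested. The median log2 fold change was 0.03. Il18, a cytokine matured like interleukin-1 beta, had 8 and 2 counts with Lenti-GFP against 27 and 14 counts with Lenti-AS (log2 fold change 2.20, SE 0.68, edgeR adjusted p = 0.150). It was 3.48 without Lenti-GFP 1 and 1.52 without Lenti-GFP 2, and the likelihood ratio test called Il18 higher. Il18 reached 10 counts only with Lenti-AS, so it passed the filter through the group where it was higher. Its p-value, its call and its place among the 3 are therefore given as a description only. Tnfrsf1a had a log2 fold change of 0.62 (SE 0.23, edgeR adjusted p = 0.203) that was 0.19 without Lenti-AS 1 and 0.95 without Lenti-AS 2. DESeq2 called Tnfrsf1a higher.

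**Figure D4:**
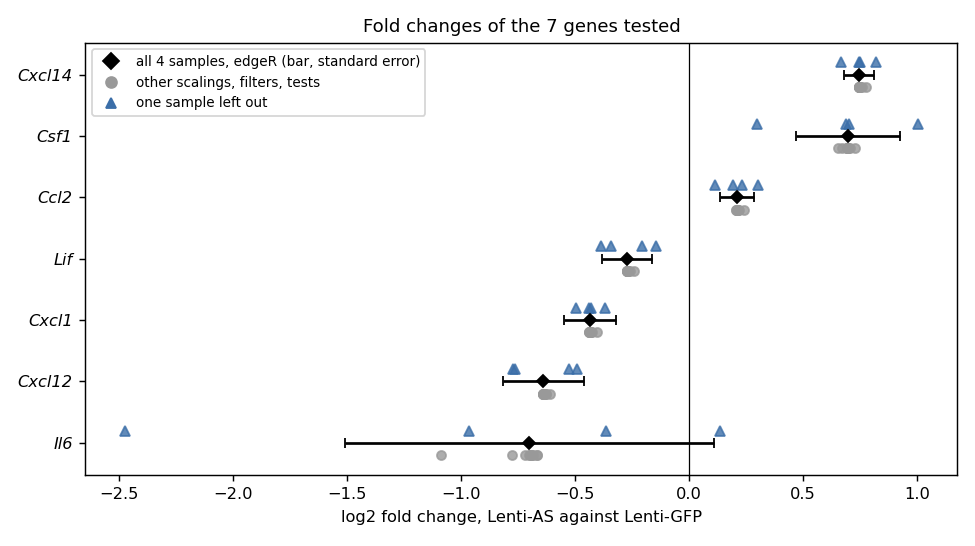
Log2 fold changes of Lenti-AS against Lenti-GFP (horizontal axis) for the 7 genes tested, with the fit on all samples as a black diamond with its standard error, other settings as grey circles and fits that leave out 1 sample as blue triangles. The values of Cxcl14 lay between 0.67 and 0.82 without a sample, those of Csf1 between 0.30 and 1.00, and those of Il6 between -2.47 and 0.14.

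Of 10 genes for the processing of ligands, all were tested and 0 were called, with 0 at an unadjusted p under 0.05. Of all genes tested, 1.98% were called and 21.8% had such a p. Adam10 and Adam17, the proteases that shed CX3CL1 and cytokine receptors, had log2 fold changes of 0.13 and -0.06 (edgeR adjusted p = 0.247 and 0.520). In the NF-kB pathway, 32 of 32 genes with a row were tested and 0 were called, with 7 at an unadjusted p under 0.05 (21.8% of all genes tested) and a median log2 fold change of -0.03, beside 0.0071 over all genes tested. Traf3, an adaptor that restrains the noncanonical branch, had a log2 fold change of 0.32 (SE 0.10) and Cyld, a deubiquitinase that restrains NF-kB, one of -0.21 (SE 0.07), with edgeR adjusted p = 0.145 and 0.146. In the JAK-STAT pathway, 24 of 25 genes were tested and 0 were called, with 3 at an unadjusted p under 0.05 (21.8% of all genes tested) and a median of 0.06. Stat3, the main relay of gp130, had 140 and 128 CPM with Lenti-GFP against 163 and 156 CPM with Lenti-AS (log2 fold change 0.25, SE 0.07, edgeR adjusted p = 0.116). Jak2, a kinase of cytokine receptors, had 67.2 and 65.1 CPM with Lenti-GFP against 56.3 and 57.2 CPM with Lenti-AS (log2 fold change -0.22, SE 0.07, edgeR adjusted p = 0.142).

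The 9 regulators of cytokine mRNA decay had a median log2 fold change of 0.36, with 8 higher and 1 lower, beside 0.0071 over all genes tested. By edgeR's quasi-likelihood test 0 of the 9 were called and 3 had an unadjusted p under 0.05, beside 1.98% and 21.8% of all genes tested. Without 1 sample the median lay between 0.18 and 0.46. Hnrnpd, which encodes the AU-rich element binding protein AUF1, had 52.6 and 53.7 CPM with Lenti-GFP against 69.1 and 78.7 CPM with Lenti-AS, so that 15.4 CPM lay between the groups and 9.51 CPM between the Lenti-AS samples. Its log2 fold change was 0.48 (SE 0.08, edgeR adjusted p = 0.0557), and it was called higher by DESeq2, the likelihood ratio test, the newer quasi-likelihood fit and with other filters on low counts. The log2 fold change of Hnrnpd was 0.57 without Lenti-AS 1 and 0.38 without Lenti-AS 2. Zfp36l1, which promotes the decay of AU-rich mRNAs, had 75.5 and 73.2 CPM with Lenti-GFP against 119 and 84.4 CPM with Lenti-AS (log2 fold change 0.45, SE 0.16, edgeR adjusted p = 0.177), and its log2 fold change was 0.18 without Lenti-AS 1 and 0.68 without Lenti-AS 2. Zfp36l1 was called by DESeq2. Over all 9 of these lists, 116 of 164 genes with a row were tested. Of these, 0 were called and 25 had an unadjusted p under 0.05, beside 1.98% and 21.8% of all genes tested. DESeq2 called 5 of the 116, where it called 5.04% of all genes tested (Tnfrsf1a, Zfp36, Zfp36l1 and Hnrnpd higher and Ackr3 lower). Genes to which DESeq2 gave no adjusted p are kept in both totals.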

How the data were processed

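RNA-seq counts of 2 Lenti-GFP and 2 Lenti-AS samples were analysed. The authors counted 50 bp paired-end reads per gene with featureCounts over RefSeq exons of rn6 and deposited whole-number counts with no normalization. The paper's text names hisat2 as the aligner, while the submitters' processing notes list GSNAP, and neither strand handling nor the treatment of multi-mapping reads is given in the sources used here. A repeated header line (1) was dropped.

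Samples were mapped to groups and replicates by title and column name. The test was run in edgeR 4.0.16 (R 4.3.3) on the 12446 genes that reached 10 counts in 2 samples or more (TMM factors, glmQLFit in its legacy form, glmQLFTest, no replicate term), with Benjamini-Hochberg adjustment over all genes tested, and CPM used the TMM-scaled library sizes of these genes. The biological coefficient of variation was 12.1%. The standard error was computed from the F statistic. Alternatives were DESeq2 1.42.0, limma-voom (limma 3.58.1), other scalings, filters, tests and cut-offs, a replicate block and leaving out each sample. A fit without globin genes was chosen after seeing the data. The procedure was tested on simulated data.

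The members and gene lists were chosen with earlier results of these data known. Named were all members, their receptors, the called genes of each list or, with none, its 2 genes with the smallest p, the 5 genes most like Cxcl14, and Egr2. Bcl3, Ccl7, Ccl11, Ccl27, Cntf, Cntfr, Col1a1, Cxcl2, Cxcl3, Cxcr6, Dpp4, Il11, Il1rl1, Sox10, Zfp36 and markers near 0 were named after their values were seen. Promoter sequences were from RefSeq (GRCr8). Some genes that the rule takes are not reported here.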

Additional observations from a re-analysis of the deposited data

How the results depend on the processing

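With 2 samples per group the calls depended on the test. Against 163 genes called higher and 83 lower, DESeq2 called 488 and 139, the likelihood ratio test 374 and 147, and a fold change of at least 1.5 left 81 and 43. Leaving out 1 sample gave 0 to 1260 higher and 1 to 278 lower, namely 0 and 1 without either Lenti-GFP sample, 567 and 278 without Lenti-AS 1, and 1260 and 255 without Lenti-AS 2. No stated culture or day is shared by samples of the same number, and their deviations from the group means did not run together (correlation -0.018, over genes). A replicate block left 3 genes called higher and 14 lower, 16 of them also called without it, and 0 members other than Cxcl14 were called with or without it. Of members other than Cxcl14, DESeq2 called 1 higher (Csf1, log2 fold change 0.69) and 2 lower (Cxcl1, -0.44, and Cxcl12, -0.64), and the cause was not tested. Without 1 sample, the log2 fold change lay between 0.67 and 0.82 for Cxcl14, 0.30 and 1.00 for Csf1, and 0.11 and 0.30 for Ccl2. It lay between -0.50 and -0.37 for Cxcl1, and -0.77 and -0.49 for Cxcl12. For Lif it lay between -0.39 and -0.14, and for Il6 between -2.47 and 0.14. No list gene was called in the fit described above. DESeq2 called 4 higher and 1 lower, and the likelihood ratio test 2 and 2. The latter include Il18 and Cxcr3, which passed the filter on counts only through the group where each was higher. The newer quasi-likelihood fit, both other filters and the fit without globin genes called 1 higher each (Hnrnpd). With no limit on the fold change 1 was called lower, and without 1 sample there were 0 to 19 higher and 0 to 2 lower. The rule also took 36 genes other than members, namely receptors of the members, pathway list genes, cell type markers and Egr2. Over these genes and the alternatives, fits without 1 sample included, 538 values kept their direction and side of the threshold. A further 43 passed it in addition and 15 changed sign. None of the 36 was called in the fit described above, so no call could be lost. Lifr, near 0, was at 0.0086 with upper-quartile factors, 0.0301 with library totals, 0.0013 with a filter of 1 CPM and 0.0006 without globin genes. Without 1 sample, signs changed within -0.10 to 0.0928 for Lifr, -0.56 to 0.067 for Il1r1, -0.63 to 0.15 for Cd14, -0.27 to 1.24 for Col1a2, -1.41 to 0.29 for Pecam1 and -0.49 to 0.31 for Cd3g. Of the medians of the 9 lists, 126 values moved by less than the spread between replicates and 9 by more. Il6, Cxcl10, Cx3cl1 and Il1b were limited by counts of 15 or fewer.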
